A study of Rattus norvegicus with 4 samples.

Results

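The heat shock proteins, chaperonins and folding enzymes of aged rat tendon stem/progenitor cells (rTSPCs) comprised 79 of the 7235 named genes measured. They were chosen by gene symbol alone: the J proteins (Dnaj), the HSP70 (Hspa), small heat shock (Hspb), HSP60 (Hspd), HSP10 (Hspe), HSP110 (Hsph) and HSP90 families, the protein disulfide isomerases (Pdia), the BAG exchange factors, the prolyl isomerases (Ppi and Fkbp), the subunits of the cytosolic chaperonin, and Hsf1, Hsf2, Canx, Calr, Xbp1, Ern1, Atf6 and Hyou1. The symbol rule itself uses no measured values, but it was set with earlier results of these data known. Each of the 79 genes had 1 array feature. By the known site of the protein, 40 were placed in the cytosol, 6 in the nucleus, 24 in the endoplasmic reticulum (ER) and 7 in mitochondria, while Dnajc22 was placed in other membranes and Pdia6l1 was not assigned. Hspa1b, Hsph1, Pdia3, Ppib and Ppif were not analysed here.

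RNA was profiled on 4 Affymetrix rat transcriptome arrays of rTSPCs, which are mesenchymal cells cultured from tendon. The sample titles give 18-month-old rats as their source. Of the 4 arrays, 2 are labelled as cells given prim-O-glucosylcimifugin (POG), a compound of saposhnikovia root (18M + POG). The other 2 are labelled as cells given the solvent dimethyl sulfoxide (18M + DMSO). The dose of 20 μM is that of the study's methods, which give an equal amount of solvent to the controls of serially passaged cells. The groups follow the treatment entries of the labels, since the sample titles are ambiguous on treatment. These entries say treated until passage 12 for all 4. The study instead describes passage 12 for serially passaged cells of young rats, and about a week of treatment for aged rTSPCs. Which schedule the arrays follow is not settled by the labels. The replicates are called biological, but no label ties them to separate rats, so the p-values measure the spread between these arrays. Signals are log2 values after robust multichip analysis (RMA), and a log2 fold change is the mean of the POG arrays minus the mean of the DMSO arrays. Directions follow the labels. By them, RNA of the division marker Ki67 was lower with POG, whereas the study's staining gave more Ki67 protein in aged rTSPCs after a few days of POG. The study also stained more Ki67-positive cells with POG at passage 12, in serially passaged cells of young rats. Both are stains for protein rather than RNA, and the treatment time of the aged cells may differ too. An exchange of the group labels would turn the sign of every fold change given here, and was not tested.

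Molecular chaperones bind unfolded protein chains and help them reach their native form, and each compartment of the cell holds its own set. In the cytosol, HSP70 works with J proteins and passes clients to HSP90 or to the ring-shaped chaperonin CCT, and heat shock factor 1 (HSF1) switches on many of these genes when unfolded protein accumulates. In the ER, the HSP70 protein BiP, the lectins calnexin and calreticulin, disulfide isomerases and prolyl isomerases fold secreted proteins such as the collagen that tendon cells make, under the watch of the stress sensors IRE1 (Ern1), PERK and ATF6. In mitochondria, mortalin pulls imported chains through the membrane and the HSP60-HSP10 chamber folds them.

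The measured mesenchymal markers included Thy1, Itgb1 and Col1a1 at log2 signals of 16.03 to 19.41 on every array. Scx, the tendon transcription factor gene, was at 5.48 to 6.09 and Nt5e at 4.71 to 5.69, where the lowest signal of an array was 3.08 to 3.15. The summed signal of 11 measured mesenchymal markers was 20.40 to 20.45 on the log2 scale in the POG arrays and 20.09 to 20.10 in the DMSO arrays. Of the 11, 4 rose (Eng, Nt5e, Col3a1 and Dcn, by 0.67 to 1.18) and 2 fell. The falls were in Tnc, by 1.63, and Cd44, by 0.81. The groups differed widely in genes of dividing cells: Mki67, which encodes Ki67, had signals of 10.97 and 10.91 in the POG arrays, against 15.11 and 15.04 in the DMSO arrays, and all 21 of the measured division genes fell, with a median log2 fold change of -3.35. Their summed signal was 13.45 to 13.71 in the POG arrays and 17.18 to 17.20 in the DMSO arrays. Of 4 smooth muscle and pericyte markers 3 rose, Myh11 by 3.14, with a summed signal of 17.25 to 17.56 in the POG arrays and 17.20 to 17.35 in the DMSO arrays. Of the chondrocyte markers 2 of 3 rose (14.53 to 14.88 in the POG arrays, 13.51 to 13.58 in the DMSO arrays), as did 1 of 3 adipocyte markers (6.91 to 7.15 and 6.28 to 6.46). Of 3 blood cell markers Cd34 rose, which the study names a hematopoietic stem cell marker, while Cd14 and Cd68 were not called. The summed signal of these 3 was 9.0 to 9.18 in the POG arrays and 8.77 to 9.08 in the DMSO arrays. Kdr, the 1 endothelial marker measured, had 5.50 to 5.94 in the POG arrays and 5.73 to 5.82 in the DMSO arrays. The part of these shifts in the results on folding genes was not tested, and in bulk RNA fewer cells of a type cannot be told apart from less RNA per cell.

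Among the folding genes, 7 rose and 13 fell in the POG arrays (limma, adjusted p under 0.05). The 20 called genes are 25.3% of the 79, where 37.6% of all genes tested were called. By direction, 8.86% of the folding genes rose, beside 20.4% of all genes, and 16.5% fell, beside 17.2%. The changes were modest: log2 fold changes ran from -1.32 in Tcp1 to 1.12 in Dnajb4, and only Tcp1, Fkbp5 and Dnajb4 passed 2-fold, which is 3 of 79 where 14.6% of all genes did. The median log2 fold change was -0.17 over the folding genes and 0.04 over all genes. Both POG arrays lay below both DMSO arrays in 31 genes and above them in 19, and the groups overlapped in the other 29. For all genes the shares were 32.7% below and 37.2% above.

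The compartments differed in their counts. Of the 40 cytosolic genes 9 fell (22.5%, beside 17.2% of all genes) and Dnajb4 alone rose (2.5%, beside 20.4%), with a median of -0.24. Of the 24 ER genes 5 rose (20.8%) and 2 fell (8.33%), with a median of 0.13, so that the share of ER genes that rose was near that of all genes. The 7 mitochondrial genes held 1 rise and 1 fall (14.3% each) around a median of 0.03, and 1 of the 6 nuclear genes fell (16.7%), with a median of -0.26. These counts and medians are descriptions, and the difference between compartments was not tested. Standard errors of the log2 fold changes were 0.19 to 0.28, and 16 of the 20 called genes changed by over 1.5-fold.

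**Figure D1:**
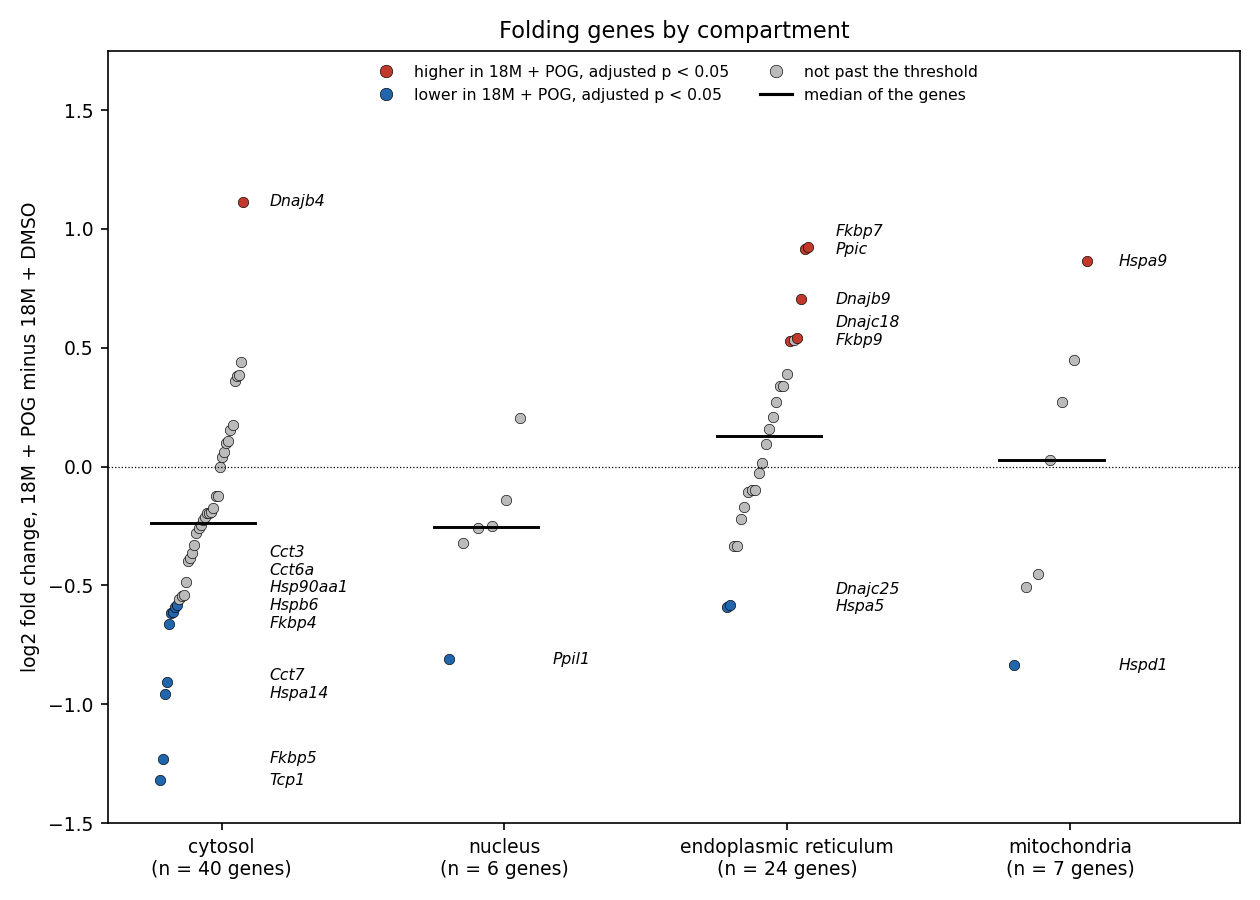
Log2 fold change (18M + POG minus 18M + DMSO, vertical axis) of the folding genes placed in the cytosol, nucleus, endoplasmic reticulum and mitochondria; each point is 1 gene, coloured by its limma call, and the short line is the compartment's median. In the cytosol 9 genes lie below 0 as called and only Dnajb4 above, while the endoplasmic reticulum holds 5 called above and 2 below.

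The chaperonin CCT (also TRiC), a double ring of 8 kinds of subunit that folds actin and tubulin, had 4 of its 8 subunit genes lower past the threshold (50%, beside 17.2% of all genes). Both POG arrays lay below both DMSO arrays in 8 of 8, as in 32.7% of all genes, with a median log2 fold change of -0.57. Tcp1, which encodes the alpha subunit, had signals of 11.80 and 11.83 in the POG arrays, against 13.02 and 13.25 in the DMSO arrays. The groups were far apart for their spread, and Tcp1 fell by 1.32 (SE 0.20, adjusted p = 0.000119), which is 2.50-fold. Cct7, the eta subunit, had 12.53 and 12.96 in the POG arrays and 13.77 and 13.53 in the DMSO arrays. It fell by 0.91 (SE 0.21, adjusted p = 0.00426). Cct3 and Cct6a also fell, with log2 fold changes of -0.58 and -0.59 and adjusted p of 0.0283 and 0.0259. The other 4, Cct2, Cct4, Cct5 and Cct8, had log2 fold changes of -0.37 to -0.56 with adjusted p of 0.0552 to 0.179, and their 95% intervals reach from -1.05 to 0.08. The call of Tcp1 held with any 1 array left out (adjusted p 0.0129 to 0.0254). That of Cct7 held only without POG replicate 2 (0.0359) and was lost without POG replicate 1 (0.0887), DMSO replicate 1 (0.105) or DMSO replicate 2 (0.0533), and those of Cct3 and Cct6a were lost in all 4 such fits (0.0919 to 0.153).

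**Figure D2:**
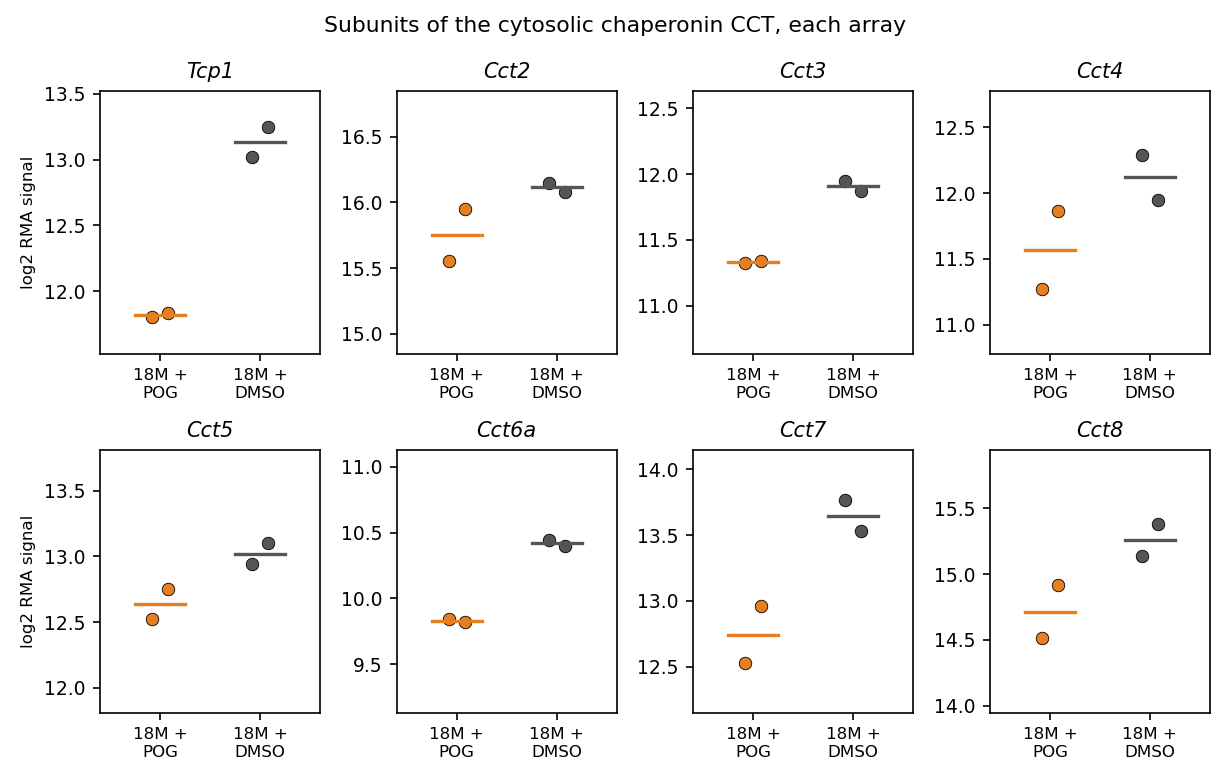
RMA signal on the log2 scale (vertical axis, spanning 2 units in every panel) of the 8 CCT subunit genes; points are the 2 arrays of each group, 18M + POG on the left and 18M + DMSO on the right, and lines are group means. In each panel both 18M + POG points lie below both 18M + DMSO points, and the gap is widest in Tcp1.

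Of the 9 cytosolic HSP70 and HSP90 genes measured, only Hspa14 and Hsp90aa1 were called, both lower. Hspa8, the constitutive HSC70, had signals of 18.43 and 18.52 in the POG arrays and 18.90 and 19.02 in the DMSO arrays, from an array feature whose name marks it as unmapped. Its groups did not overlap, but the log2 fold change of -0.49 missed the threshold (95% interval -0.90 to -0.07, adjusted p = 0.0615). Hspa1a, the main heat-inducible HSP70 gene, stood at 5.49 and 5.53 in the POG arrays, against 5.41 and 5.30 in the DMSO arrays. These signals are low on every array, the difference was 0.16 (95% interval -0.26 to 0.57, adjusted p = 0.554), and Hspa1b is a near-identical copy whose RNA the probes may share. Hspa14, a ribosome-linked HSP70, had 6.40 and 7.18 in the POG arrays and 7.36 and 8.13 in the DMSO arrays. It fell by 0.96 (SE 0.28, adjusted p = 0.0160), although the arrays within each group differed by over 0.7, and the call was lost with any 1 array left out (0.0577 to 0.314). It was the only one of 7 cytosolic HSP70 genes past the threshold (14.3%, where 37.6% of all genes were called), and the log2 fold changes of the other 6 lay between -0.54 and 0.38. Hsp90aa1, the inducible cytosolic HSP90, had signals of 16.25 and 16.46 in the POG arrays, against 16.76 and 17.17 in the DMSO arrays. It fell by 0.61 (SE 0.21, adjusted p = 0.0340), and the call was lost with any 1 array left out (0.0703 to 0.273). The constitutive Hsp90ab1 had 16.21 and 16.28 in the POG arrays and 16.45 and 16.42 in the DMSO arrays. Its arrays also lay apart, by less, and the log2 fold change of -0.19 did not pass (95% interval -0.60 to 0.22, adjusted p = 0.458).

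The largest change among co-chaperones of HSP90 was in Fkbp5, the FKBP51 prolyl isomerase that holds steroid receptors in a low-affinity state and is itself a glucocorticoid target. Its signals were 6.36 and 6.64 in the POG arrays, against 7.63 and 7.83 in the DMSO arrays. The groups lay about a log2 unit apart, and Fkbp5 fell by 1.23 (SE 0.20, adjusted p = 0.000281), a call that held with any 1 array left out (0.0207 to 0.0351). Fkbp4, its FKBP52 counterpart on the same receptors, and the small heat shock gene Hspb6 fell too, by 0.66 and 0.62 (adjusted p of 0.0221 and 0.0215), and both calls were lost with any 1 array left out (0.0530 to 0.181). Ppid, Fkbp1a and Fkbpl, the other 3 cytosolic prolyl isomerases, had log2 fold changes of -0.20 to 0.18 and did not pass. The other 4 small heat shock genes spread from -0.25 to 0.44 without a call. Among them was Hspb1, which encodes HSP27, with 11.21 and 10.84 in the POG arrays and 11.49 and 11.05 in the DMSO arrays. Its groups overlapped, and the log2 fold change was -0.25 (95% interval -0.72 to 0.23, adjusted p = 0.402).

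Dnajb4, an HSP40 of the cytosol, was the one cytosolic rise and the largest rise among all the folding genes. Its signals were 10.16 and 10.47 in the POG arrays, against 8.87 and 9.53 in the DMSO arrays. The groups did not overlap, and Dnajb4 rose by 1.12 (SE 0.24, adjusted p = 0.00204). Its call held only without DMSO replicate 2 (0.0158) and was lost without POG replicate 1 (0.0648), POG replicate 2 (0.113) or DMSO replicate 1 (0.0872). The other 6 cytosolic J proteins had log2 fold changes of -0.40 to 0.39, and the 6 exchange factors that release HSP70 clients (Bag1, Bag2, Bag3, Bag4, Bag6 and Hspbp1) had -0.28 to 0.36. None of these 12 passed in limma, and each of them had an unadjusted p of 0.0610 or more.

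The regulators of the cytosolic response showed no call. Hsf1, its master transcription factor, had signals of 8.36 and 8.03 in the POG arrays and 8.32 and 8.35 in the DMSO arrays. The groups overlapped, with a log2 fold change of -0.14 (95% interval -0.57 to 0.29, adjusted p = 0.613). Hsf2, a related factor, had 9.73 and 10.25 in the POG arrays and 10.03 and 9.54 in the DMSO arrays. Its groups overlapped as well, at 0.21 (95% interval -0.30 to 0.71, adjusted p = 0.516), and both changes turned sign with 1 array left out. Array signal reports the RNA of these factors, not the trimer that binds DNA. Cytosolic co-chaperones outside the symbol families gave 3 falls among 13 measured of 22 listed (23.1%, beside 17.2% of all genes), with a median of -0.20, while the other 10 did not pass. Cryab, the small heat shock protein alpha-B crystallin, had 11.98 and 11.76 in the POG arrays and 13.68 and 13.49 in the DMSO arrays, and fell by 1.72 (adjusted p = 1.19e-05). Stip1, the HOP adaptor that joins HSP70 to HSP90, had 13.20 and 12.94 in the POG arrays and 14.37 and 13.90 in the DMSO arrays, and fell by 1.07 (adjusted p = 0.00153). In both genes the groups lay well apart. With any 1 array left out the call of Cryab held (0.00709 to 0.0161), and that of Stip1 held only without DMSO replicate 2, at adjusted p of 0.0200 to 0.0816 over the 4 fits. Cdc37, which brings kinases to HSP90, was the third, at -0.62 (adjusted p = 0.0236), and its call was lost in all 4 (0.0819 to 0.179).

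HSF1 trimers bind inverted repeats of a short unit in the promoters of heat shock genes. The palindrome GAANNTTC, read alike on both strands, was searched in windows from 250 bases before to 50 bases after the gene start in RefSeq (GRCr8), which 66 of the 79 folding genes had. It stood in 11 of the 66 (16.7%), beside 8.59% of 33469 promoters of the rat. Of the 11 genes, 3 fell (Fkbp4, Hspb6 and Hspd1), 2 rose (Hspa9 and Dnajc18) and 6 were not called (Bag3, Cct4, Hspa8, Hspb1, Hspb8 and Hspe1). Of all 365 tested genes with the palindrome, 17.3% rose and 18.1% fell, and of 5708 without it 19.7% rose and 17.4% fell. The sites of the 5 called genes are shown because they carry the same element beside opposite changes, each in the gene's own direction with 10 bases on either side and the palindrome in capitals:
Fkbp4, chr4:163398038-163398065, minus strand: cgcttctctaGAAAGTTCtccgctcccg
Hspb6, chr1:94934213-94934240, plus strand: agtaattattGAAGTTTCtaaataagga
Hspd1, chr9:64084257-64084284, minus strand: gggccttccgGAAGGTTCtagaaccgag
Dnajc18, chr18:27577587-27577614, minus strand: tgttggcatgGAAAGTTCcgtgtgactt
Hspa9, chr18:26828465-26828492, minus strand: cagcaaacagGAAGTTTCtggtcaggca
Fkbp4, which fell, and Dnajc18, which rose, hold the same 8 letters, as do Hspb6 and Hspa9. A match of letters is not a site shown to be bound.

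In the ER, 3 of 5 genes of prolyl isomerases, enzymes that assist collagen and other secreted chains, rose (60%, beside 20.4% of all genes) while the BiP gene fell. The median log2 fold change over the 5 was 0.53. Fkbp7 (FKBP23), a luminal isomerase, had signals of 12.64 and 12.98 in the POG arrays, against 11.78 and 11.99 in the DMSO arrays. The groups did not overlap, and Fkbp7 rose by 0.93 (SE 0.21, adjusted p = 0.00296). Ppic, which encodes cyclophilin C, had 15.90 and 16.40 in the POG arrays and 15.11 and 15.36 in the DMSO arrays. It rose by 0.92 (SE 0.22, adjusted p = 0.00471). Fkbp9 rose by 0.53 (adjusted p = 0.0426). Fkbp10 (FKBP65), needed for collagen cross-linking and mutated in a brittle bone disease, had 14.40 and 14.27 in the POG arrays and 14.05 and 13.94 in the DMSO arrays. Its POG arrays were the higher ones, but 0.34 did not pass (95% interval -0.08 to 0.76, adjusted p = 0.183). Fkbp11 was level at 0.02 (95% interval -0.41 to 0.44). The call of Fkbp7 was lost without POG replicate 2 (0.0733) or DMSO replicate 1 (0.0824), and that of Ppic without POG replicate 2 (0.101), DMSO replicate 1 (0.117) or DMSO replicate 2 (0.0580). Fkbp9 lost its call in all 4 such fits (0.0986 to 0.165).

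The ER J proteins split, with 2 of 8 higher (25%, beside 20.4% of all genes) and 1 lower (12.5%, beside 17.2%). Dnajb9 (ERdj4), which delivers misfolded chains for degradation and represses IRE1, had signals of 10.17 and 10.75 in the POG arrays, against 9.68 and 9.83 in the DMSO arrays. It rose by 0.71 (SE 0.22, adjusted p = 0.0224) without overlap, and the call held only without POG replicate 1 (0.0389) and was lost without POG replicate 2 (0.205), DMSO replicate 1 (0.206) or DMSO replicate 2 (0.133). Dnajc18, a J protein of the ER membrane, had 12.23 and 12.14 in the POG arrays and 11.61 and 11.68 in the DMSO arrays. It rose by 0.54 (SE 0.19, adjusted p = 0.0392), with the 2 arrays of each group close together. Dnajc25 had 11.22 and 11.68 in the POG arrays and 11.92 and 12.14 in the DMSO arrays. It fell by 0.58 (SE 0.21, adjusted p = 0.0454), and this call was also lost under quantile normalization (0.0540), median subtraction (0.0616) and a fit over all features (0.0555). With any 1 array left out, neither Dnajc18 (0.102 to 0.179) nor Dnajc25 (0.0658 to 0.279) passed. The other 5 ER J proteins lay between -0.11 and 0.54.

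Hspa5, which encodes BiP, had signals of 16.52 and 16.73 in the POG arrays, against 17.10 and 17.33 in the DMSO arrays. The groups did not overlap, and Hspa5 fell by 0.59 (SE 0.20, adjusted p = 0.0318), a call lost with any 1 array left out (0.0897 to 0.210). Hsp90b1, the ER HSP90 called GRP94, had 15.03 and 15.92 in the POG arrays and 15.69 and 15.70 in the DMSO arrays. Its POG arrays lay on either side of both DMSO arrays, 0.89 apart, so that the log2 fold change of -0.22 (95% interval -0.76 to 0.32) turned to 0.23 without POG replicate 1. Hyou1 (GRP170), an exchange factor of BiP, had 11.47 and 12.03 in the POG arrays and 11.99 and 12.18 in the DMSO arrays. Its groups overlapped at -0.34 (95% interval -0.81 to 0.14, adjusted p = 0.251).

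The lectin chaperones that hold sugar-tagged chains pointed in different directions without a call. Calr (calreticulin) had signals of 17.67 and 17.67 in the POG arrays and 18.07 and 17.94 in the DMSO arrays, a log2 fold change of -0.34 (95% interval -0.75 to 0.08, adjusted p = 0.187). Canx (calnexin) had 16.79 and 17.05 in the POG arrays and 16.62 and 16.80 in the DMSO arrays, a change of 0.21 (95% interval -0.22 to 0.64, adjusted p = 0.432). Calr was lower on both POG arrays, whereas the groups overlapped in Canx. Among disulfide isomerases, Pdia4 (ERp72) had 14.45 and 14.70 in the POG arrays, against 14.68 and 14.81 in the DMSO arrays. Pdia6 (P5) had 15.22 and 15.40 in the POG arrays, against 15.16 and 15.27 in the DMSO arrays. Both overlapped, at -0.17 (95% interval -0.59 to 0.25) and 0.10 (95% interval -0.32 to 0.51), and Pdia5 was at -0.03.

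Of the 3 stress sensors, PERK was higher, while IRE1, ATF6 and the transcription factor XBP1 were not called. Eif2ak3, which encodes PERK and lies outside the symbol families, had signals of 9.92 and 9.72 in the POG arrays, against 8.84 and 9.05 in the DMSO arrays. The groups did not overlap, and Eif2ak3 rose by 0.88 (SE 0.20, adjusted p = 0.00346), a call lost without POG replicate 1 or DMSO replicate 1 (0.0407 to 0.0795 over the 4 fits). Ern1, which encodes IRE1, had signals of 7.62 and 7.42 in the POG arrays and 7.67 and 7.57 in the DMSO arrays, a log2 fold change of -0.10 (95% interval -0.52 to 0.32, adjusted p = 0.717). Atf6 had 13.84 and 13.88 in the POG arrays and 13.51 and 13.43 in the DMSO arrays, a change of 0.39 (95% interval -0.02 to 0.80, adjusted p = 0.124). Xbp1, whose RNA IRE1 splices into the active form, had 14.42 and 14.29 in the POG arrays and 14.77 and 14.46 in the DMSO arrays, a change of -0.26 (95% interval -0.69 to 0.17, adjusted p = 0.329). Atf6 lay higher on both POG arrays and Xbp1 lower, while Ern1 overlapped, and the splicing of Xbp1 and cleavage of ATF6 were not measured here.

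**Figure D3:**
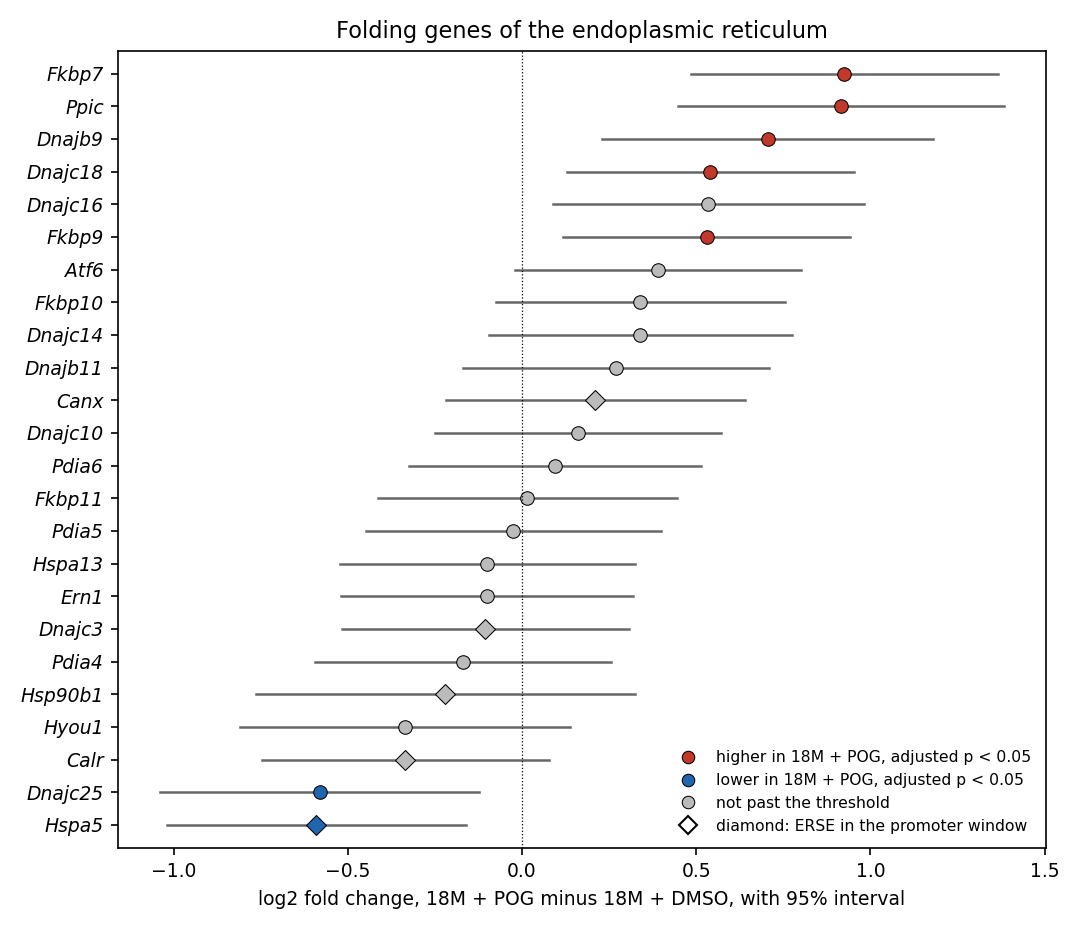
Log2 fold change (18M + POG minus 18M + DMSO, horizontal axis) with its 95% interval from limma for the 24 folding genes of the endoplasmic reticulum, ordered by change; colours give the call, and diamonds mark genes with an ER stress response element in the promoter window. Prolyl isomerases and J proteins stand at the top, up to 0.93 in Fkbp7, and the diamonds lie between -0.59 in Hspa5 and 0.21 in Canx.

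The ER stress response element (ERSE), the letters CCAAT followed by 9 unspecified bases and CCACG, through which ATF6 acts together with NF-Y, was searched on both strands of the same windows. It stood in 6 of the 66 folding genes (9.09%), beside 0.0657% of all promoters (22 in number). These 6 were Hspa5, Hsp90b1 with 2 sites, Calr, Canx, Dnajc3 and Xbp1, of which Hspa5 fell and the other 5 were not called. The 5 ER genes that rose all had a window, and none of these windows held the element. With exact letters found in 0.0657% of all promoters, that absence does not set these 5 genes apart. Sites of 5 of the 6 genes with the element are shown because it is rare among all promoters. The whole window of Hspa5 comes first, and the others have 8 bases on either side, with the element in capitals and each in its gene's direction:
Hspa5, chr3:38452766-38453065, plus strand: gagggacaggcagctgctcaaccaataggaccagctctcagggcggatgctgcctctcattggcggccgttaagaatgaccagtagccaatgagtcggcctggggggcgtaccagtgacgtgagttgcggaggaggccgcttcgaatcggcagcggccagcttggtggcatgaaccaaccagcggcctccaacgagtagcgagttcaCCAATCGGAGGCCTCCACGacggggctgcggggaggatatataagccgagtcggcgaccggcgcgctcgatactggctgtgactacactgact
Hsp90b1, chr7:23012443-23012477, minus strand: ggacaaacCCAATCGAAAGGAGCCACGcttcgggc
Hsp90b1, chr7:23012339-23012373, minus strand: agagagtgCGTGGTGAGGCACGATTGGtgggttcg
Calr, chr19:40213127-40213161, plus strand: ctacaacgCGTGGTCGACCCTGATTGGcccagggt
Dnajc3, chr15:102432526-102432560, plus strand: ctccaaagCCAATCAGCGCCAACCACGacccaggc
Xbp1, chr14:84604550-84604584, plus strand: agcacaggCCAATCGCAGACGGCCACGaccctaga
In Hspa5 the element starts 43 bases before the gene start. The reverse complement appears in Calr and in the second site of Hsp90b1, as CGTGG before ATTGG. Of all 13 tested genes with the element in their window, 3 fell (23.1%: Hspa5, Creld2 and the division gene Birc5) and 10 were not called. Of 6060 genes without it, 17.5% fell and 19.6% rose. The median log2 fold change was -0.27 with the element and 0.03 without it, and 6 of the 13 are the folding genes above. A second element of this response, TGACGTGG (UPRE), whose other strand opens with the CCACG that ends an ERSE, stood in 5 of the 66 (7.58%) and in 0.595% of all promoters. Its 5 holders were Bag2, Bag3, Dnajc10, Hyou1 and Dnajc25, of which Dnajc25 fell and 4 were not called. Of all 53 tested genes with UPRE, 17% rose and 18.9% fell, and of 6020 without it 19.6% rose and 17.5% fell. No folding gene held both elements.

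Outside the symbol families, 31 of 54 listed genes of ER folding and degradation were measured. Of these 10 rose (32.3%, beside 20.4% of all genes), 3 fell (9.68%, beside 17.2%) and 18 were not called, with a median log2 fold change of 0.24. Ddit3, the stress-induced factor CHOP downstream of PERK and ATF4, had signals of 11.87 and 11.81 in the POG arrays, against 9.74 and 10.30 in the DMSO arrays, and rose by 1.82 (adjusted p = 1.67e-05). Herpud1, a membrane protein of ER-associated degradation, had 11.64 and 11.37 in the POG arrays and 10.45 and 10.63 in the DMSO arrays, and rose by 0.97 (adjusted p = 0.00185). Creld2, a luminal folding factor that ER stress induces, had 8.58 and 9.03 in the POG arrays and 9.98 and 10.31 in the DMSO arrays, and fell by 1.34 (adjusted p = 0.000262). In all 3 genes the groups lay apart. Sec61g, a subunit of the channel that lets chains into the ER, had 14.08 and 13.66 in the POG arrays and 14.78 and 14.64 in the DMSO arrays, and fell by 0.84 (adjusted p = 0.00605). The calls of Ddit3 (0.00371 to 0.0270) and Creld2 (0.0204 to 0.0423) held with any 1 array left out. That of Herpud1 was lost without POG replicate 1 or DMSO replicate 1 (0.0337 to 0.0639), and that of Sec61g held only without POG replicate 1 (0.0348 to 0.107).

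The main mitochondrial chaperones moved in opposite directions. Hspa9, which encodes mortalin, had signals of 16.13 and 16.52 in the POG arrays, against 15.45 and 15.47 in the DMSO arrays. It rose by 0.87 (SE 0.20, adjusted p = 0.00451). Hspd1, which encodes HSP60, had 12.76 and 13.00 in the POG arrays and 13.65 and 13.78 in the DMSO arrays. It fell by 0.84 (SE 0.20, adjusted p = 0.00455). In both genes the groups lay clearly apart and the sign held with any 1 array left out. The call of Hspa9 held only without POG replicate 1 (0.0311), and was lost without POG replicate 2 (0.0767), DMSO replicate 1 (0.0815) or DMSO replicate 2 (0.0727). That of Hspd1 held only without POG replicate 2 (0.0427), and was lost without POG replicate 1 (0.0704), DMSO replicate 1 (0.0572) or DMSO replicate 2 (0.0779).

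Hspe1, which encodes HSP10, the lid of the HSP60 chamber, had signals of 14.06 and 14.00 in the POG arrays and 14.55 and 14.41 in the DMSO arrays. Both POG arrays were the lower ones, as in Hspd1, but the log2 fold change of -0.45 missed the threshold (95% interval -0.86 to -0.04, adjusted p = 0.0802). Hspd1 and Hspe1 lie head to head on rat chromosome 9, their starts 290 bases apart, so that their windows share 211 bases and 1 heat shock palindrome. The window of Hspd1 is shown because the genes share most of it, in the direction of Hspd1 and with the palindrome in capitals:
Hspd1, chr9:64083988-64084287, minus strand: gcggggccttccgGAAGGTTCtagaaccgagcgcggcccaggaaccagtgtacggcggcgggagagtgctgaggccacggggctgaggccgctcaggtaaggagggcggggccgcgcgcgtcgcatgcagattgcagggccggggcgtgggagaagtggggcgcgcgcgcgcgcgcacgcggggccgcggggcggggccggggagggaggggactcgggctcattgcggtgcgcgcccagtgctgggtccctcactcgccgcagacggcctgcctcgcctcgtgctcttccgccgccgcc
The palindrome starts 237 bases before the start of Hspd1 and 60 bases before that of Hspe1. The mitochondrial J proteins Dnajc11, Dnajc28 and Dnajc30 had log2 fold changes of -0.51, 0.03 and 0.27, and Fkbp8, an isomerase of the outer membrane, had 0.45. These 4 did not pass, with adjusted p of 0.126 to 0.932, and the POG arrays of Dnajc11 differed by 0.84. Of 19 further genes of mitochondrial folding and proteolysis 13 were measured: 1 rose (7.69%, beside 20.4% of all genes), 4 fell (30.8%, beside 17.2%) and 8 were not called. Lonp1, the protease that clears misfolded matrix protein, had signals of 11.11 and 10.93 in the POG arrays and 10.34 and 10.44 in the DMSO arrays, and rose by 0.63 (adjusted p = 0.0208). Phb1 and Phb2 encode the prohibitins, which form a scaffold ring in the inner membrane. Phb1 had 10.28 and 10.33 in the POG arrays and 11.43 and 11.31 in the DMSO arrays, and fell by 1.07 (adjusted p = 0.000637). Phb2 had 11.52 and 11.26 in the POG arrays and 12.45 and 12.23 in the DMSO arrays, and fell by 0.95 (adjusted p = 0.00214). The groups did not overlap in these 3 genes. With 1 array left out the call of Phb1 held in all 4 fits (0.0246 to 0.0365), that of Phb2 was lost without POG replicate 2 or DMSO replicate 1 (0.0361 to 0.0698), and that of Lonp1 was lost in all 4 (0.0700 to 0.145).

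**Figure D4:**
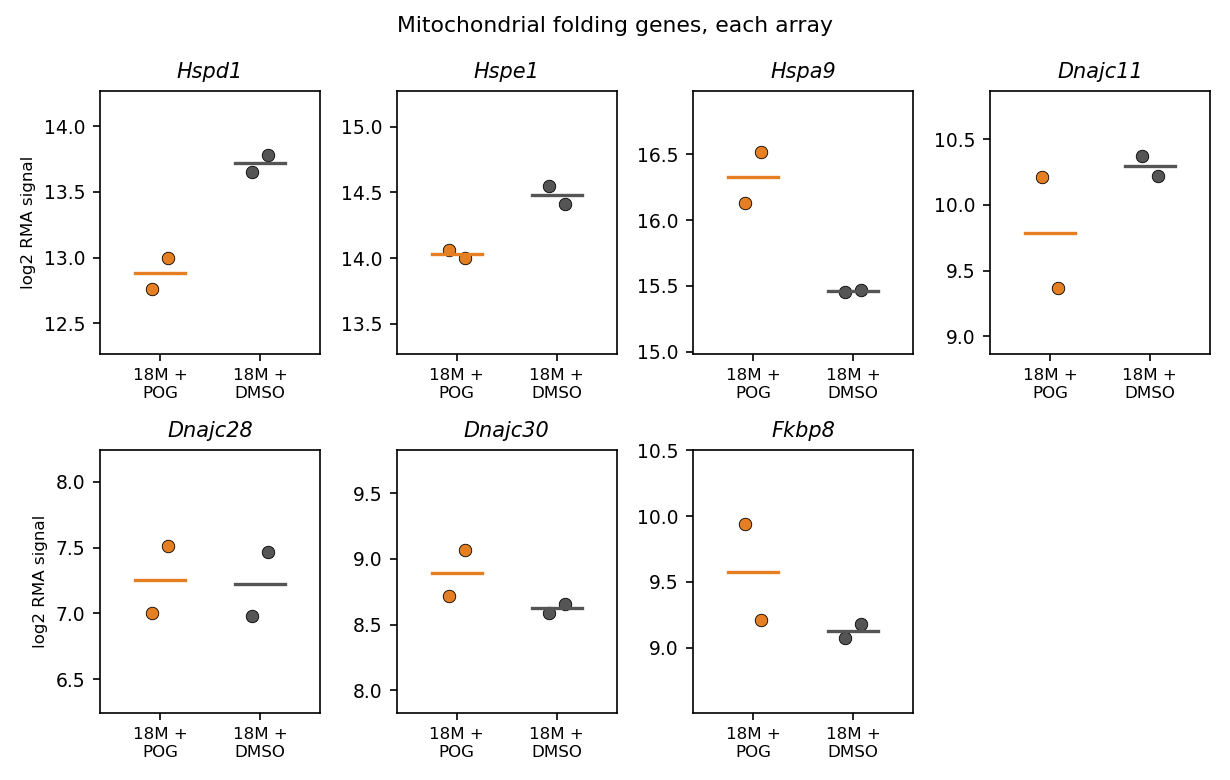
RMA signal on the log2 scale (vertical axis, spanning 2 units in every panel) of the 7 mitochondrial folding genes; points are the 2 arrays of each group, 18M + POG on the left and 18M + DMSO on the right, and lines are group means. Hspd1 and Hspe1 are lower and Hspa9 is higher on both 18M + POG arrays, whereas the groups overlap in Dnajc28.

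The nuclear genes other than the transcription factors were 3 cyclophilins of the splicing machinery. Ppil1, a spliceosome subunit, had signals of 8.08 and 8.56 in the POG arrays, against 8.90 and 9.36 in the DMSO arrays. The groups did not overlap, and Ppil1 fell by 0.81 (SE 0.23, adjusted p = 0.0128), a call lost with any 1 array left out (0.0603 to 0.202). Ppil3 and Ppig had log2 fold changes of -0.32 and -0.25 and did not pass. Dnajc22 and Pdia6l1, which stand outside the compartments, had 0.34 and -0.23, also without a call.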

How the data were processed

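Total RNA of rTSPCs was hybridized as labelled cDNA to 1 array per sample. The authors made the log2 values by RMA, which the submitters' processing notes name, with global scaling according to the study's methods, and deposited a table with a column for each array. The program and its version are not stated in these sources. The 10141 features of the table had identical values in the other deposited table. Through the platform annotation 7240 features had 1 gene symbol (7235 genes) and 2901 had none. All 7240 gene IDs stood in the GRCr8 gene table, and 0 symbols changed. Where a gene had several features, that with the highest mean was used, as for 4 genes, none of them among the 79. The tables hold no detection values, and no filter on signal was applied.

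Differences were fitted over all 7235 genes by lmFit and eBayes of limma (version 3.58.1, R 4.3.3) with group as the sole term, adjusted by Benjamini-Hochberg, with a threshold of 0.05. The study's methods name Student's test, which was run as an alternative, and an exact permutation test of 2 against 2 arrays gives no two-sided p under 0.333. The fit was tested on simulated data. The genes, compartments and lists were chosen with earlier results of these data known. Values in every array were given for the 4 largest rises and falls per compartment past the threshold without overlap and for a fixed set of well-known chaperones, and for the 2 largest rises and falls of each other list of folding genes. Leaving out each array for those lists was added after the data were seen. Other genes given a value of their own, such as Cct3, Cct6a, Fkbp4, Hspb6, Fkbp9, Cdc37 and Eif2ak3, were chosen after their values were seen. Marker sums are the log2 of summed linear signals. Promoters (RefSeq, GRCr8) were matched by gene ID, and 13 of the 79 had none in the table used. For 2 genes with a second window the first listed was read. The sequence of 1 promoter site is not reported here. Figures were drawn with matplotlib 3.10.9 in Python 3.11.15.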

Additional observations from a re-analysis of the deposited data

How the results depend on the processing

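The 20 calls were fragile to the loss of an array and stable to scaling. Calls over all genes also became fewer with any 1 array left out. The median log2 fold change of the folding genes was then -0.19 to -0.055. By compartment it was -0.33 to -0.21 in the cytosol, 0.0775 to 0.215 in the ER and -0.22 to 0.28 in mitochondria. The 20 called genes kept their sign in each of these fits, in which 1 group has a single array assumed to vary like the others, and 2, Tcp1 and Fkbp5, kept their call in all 4. The sign turned in 15 of the 79, all uncalled. Among genes given array by array these were Hsf1 to 0.025 without POG replicate 2 (range -0.305 to 0.025), Hsf2 to -0.055 without POG replicate 2 and -0.04 without DMSO replicate 2 (range -0.055 to 0.465), and Hsp90b1 to 0.225 without POG replicate 1 (range -0.665 to 0.225). The methods' t-test at an unadjusted 0.05 with a 1.5-fold limit gave 2 higher and 5 lower (cytosol 0 and 4, nucleus 0 lower, ER 1 and 0). Over all genes it gave 10.9% higher and 10.8% lower. After Benjamini-Hochberg it gave 0 in every compartment, as for all genes. With the 1.5-fold limit added to limma, the ER held 3 higher and 1 lower. It held 1 lower under quantile normalization, median subtraction and the fit over all features, since Dnajc25 lost its call. A variance prior with trend called 27, with 2 lower in mitochondria. Over all genes it called 1560 higher and 1362 lower, against 1475 and 1248 in the main fit. The replicate number as a block called 22, 8 higher and 14 lower, and ended none of the 20 calls. Over all genes the block called 1599 higher and 1358 lower. Deviations of same-numbered arrays correlated at 0.16, and with 2 pairs the numbers were not taken as a pairing. The second table, the mean of all features and the removal of the dimmest 25% of genes (69 of 79 left) ended no call. The restriction of the ER genes to those with a KDEL-like tail was not run. For 4 arrays, their number limits the precision.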
